A study of Mus musculus with 10 samples.

Results

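H3K27me3 that was present in every library of a macrophage study was taken as the constitutive set. The autosomes 1 to 19 (mm10) were divided into 1 kb bins from the chromosome start, and a library calls a bin where its regions cover at least 500 bp of that bin. Of 372982 bins called in any library, 89232 (23.9%) were called in all 10, and these are the constitutive bins described here. They cover 3.63% of the span of the 19 chromosomes. The bins were chosen by the presence of called regions in all 10 libraries, so how many libraries call a bin is a description and carries no test.

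The chromatin came from C57BL/6 mouse bone marrow-derived macrophages, grown for 7 days with M-CSF at 20 ng/ml, a cytokine that drives macrophage differentiation. WT cells carried floxed alleles of Eif2ak3, which encodes the stress kinase PERK (Eif2ak3 fl/fl), and KO cells carried the same alleles with LysMcre, in which Cre is expressed from the Lyz2 locus of myeloid cells. Cells were left unstimulated (M0, 1 library per genotype), given LPS at 20 ng/ml and IFNg at 50 ng/ml over 24 h (M1, 2 per genotype), or given IL-4 at 20 ng/ml over 24 h (M2, 2 per genotype). The design text calls the M1 and M2 libraries biological replicates, and animal age is not given in the sources used here. The body of Eif2ak3 itself held no constitutive bin and was covered in 0 libraries, so these calls do not test the deletion.

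H3K27me3 is trimethylation of lysine 27 on histone H3, written by Polycomb repressive complex 2 through its catalytic subunits Ezh1 and Ezh2. It is read by CBX proteins of Polycomb repressive complex 1 and marks genes that are kept silent, above all developmental regulators whose promoters are rich in CpG dinucleotides. In a differentiated cell such as a macrophage it is known to lie over the master regulators of other lineages.

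Sequences at the constitutive bins are shown first, since the covered promoters and microRNAs recur in the results. The promoters below are 300 bases long, from 250 bases before to 50 bases after the annotated start, and come from RefSeq (GRCm38.p6). Each CpG, the substrate of DNA methylation and a feature of Polycomb target promoters, is in capitals. Foxa1 (a pioneer factor of endoderm), Gata2 (a factor of blood stem cells and mast cells) and Hoxa10 (a posterior Hox factor) were shown for their high CpG content. Tpsg1, a tryptase of mast cells, was shown as a constitutive promoter with 0 CpG. They lie at chr12:57546062-57546361 (minus strand), chr6:88193641-88193940 (plus), chr6:52234890-52235189 (minus) and chr17:25370303-25370602 (plus).
Foxa1: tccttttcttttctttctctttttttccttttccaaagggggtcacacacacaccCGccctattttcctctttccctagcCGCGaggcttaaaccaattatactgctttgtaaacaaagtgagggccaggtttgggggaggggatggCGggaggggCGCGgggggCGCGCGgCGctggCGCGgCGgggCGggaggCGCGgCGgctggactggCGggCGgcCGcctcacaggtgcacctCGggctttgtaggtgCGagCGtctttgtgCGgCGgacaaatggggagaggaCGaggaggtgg
Gata2: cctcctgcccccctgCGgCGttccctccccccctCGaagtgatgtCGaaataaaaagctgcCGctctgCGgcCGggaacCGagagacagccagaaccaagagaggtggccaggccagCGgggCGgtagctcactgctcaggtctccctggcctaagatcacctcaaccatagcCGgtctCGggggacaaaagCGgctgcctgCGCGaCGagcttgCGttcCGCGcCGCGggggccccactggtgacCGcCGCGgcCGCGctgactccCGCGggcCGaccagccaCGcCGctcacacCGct
Hoxa10: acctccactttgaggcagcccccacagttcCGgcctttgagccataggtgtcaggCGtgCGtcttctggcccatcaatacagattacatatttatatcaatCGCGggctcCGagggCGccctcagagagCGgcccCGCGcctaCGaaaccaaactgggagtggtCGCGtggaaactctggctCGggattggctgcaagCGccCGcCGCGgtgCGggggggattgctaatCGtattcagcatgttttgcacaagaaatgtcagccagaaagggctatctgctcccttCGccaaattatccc
Tpsg1: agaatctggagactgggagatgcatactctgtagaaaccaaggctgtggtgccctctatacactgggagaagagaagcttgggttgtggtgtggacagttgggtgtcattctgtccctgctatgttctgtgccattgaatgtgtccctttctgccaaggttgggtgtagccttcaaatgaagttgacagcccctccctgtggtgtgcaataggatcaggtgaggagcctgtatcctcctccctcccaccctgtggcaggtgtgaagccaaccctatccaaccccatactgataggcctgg
Foxa1 holds 26 CpGs, Gata2 32 and Hoxa10 21 in the same length, with ratios of observed to expected CpG of 0.929, 0.900 and 0.853.

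The mature microRNAs below come from RefSeq with the seed, bases 2 to 8 from the 5′ end, in capitals. The miR-196, miR-9 and miR-132/212 seeds were chosen since more than 1 hairpin of each lies in constitutive bins, miR-10b as the Hoxd hairpin, and miR-10a and miR-155 as contrasts from uncalled bins.
miR-196a-5p: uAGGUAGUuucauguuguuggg
miR-196b-5p: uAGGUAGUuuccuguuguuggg
miR-10b-5p: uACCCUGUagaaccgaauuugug
miR-10a-5p: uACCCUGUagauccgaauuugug
miR-9-5p: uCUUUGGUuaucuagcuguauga
miR-132-3p: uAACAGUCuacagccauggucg
miR-212-3p: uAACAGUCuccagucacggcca
miR-155-5p: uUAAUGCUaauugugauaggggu
miR-196a-5p and miR-196b-5p differ by A12C and miR-10a-5p and miR-10b-5p by U12A, counted from the 5′ end, so each pair shares its seed. miR-132-3p and miR-212-3p also share a seed.

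The libraries held 12.6 to 20.9 megatags, of which 41.3% to 64.1% lay inside called regions. Estimated fragment length was 352 and 372 bp in the M0 libraries and 178 to 190 bp in the other 8. M0 is therefore given as values beside the stimulated states and is not tested against them. The M0 libraries do enter the genotype comparison of library measures, within their own state. On the X chromosome, which the bins leave out, WT M1 replicate 1 and WT M2 replicate 1 had 31310 and 52942 called bins against 686 to 1000 in the other 8 libraries. A bin that any library lacks cannot be a member, so loss of the mark in 1 state is outside what these bins can show. Constitutive bins made up 35.7% (WT M2 replicate 2) to 57.2% (WT M0) of the bins called in a library. Of the members, 81.3% lay wholly under regions in all 10 libraries. At the edge of the rule, 1842 bins whose thinnest cover was 500 to 549 bp had a median density of 21.3 tags per kb, and 1603 bins that failed by 450 to 499 bp in 1 library had 21.1. All members had a median of 28.3 tags per kb, where density is the authors' tag count of a region, normalised to 10 megatags, divided by its length.

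Developmental regulators had the highest shares of covered genes among the 18 lists. Of 20665 protein-coding genes, 1703 (8.24%) had at least 50% of the body in constitutive bins, and 5304 (25.7%) had any such bin. Against that 8.24% stood 34 of 39 Hox genes, 69 of 83 other homeobox and paired box factors, 32 of 42 GATA and basic helix-loop-helix factors, 23 of 38 forkhead factors and 20 of 34 Sox and T-box factors. Morphogen ligands followed with 27 of 51, and voltage-gated channels with 15 of 56. These counts describe the calls that chose the bins and are not tested.

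**Figure D1:**
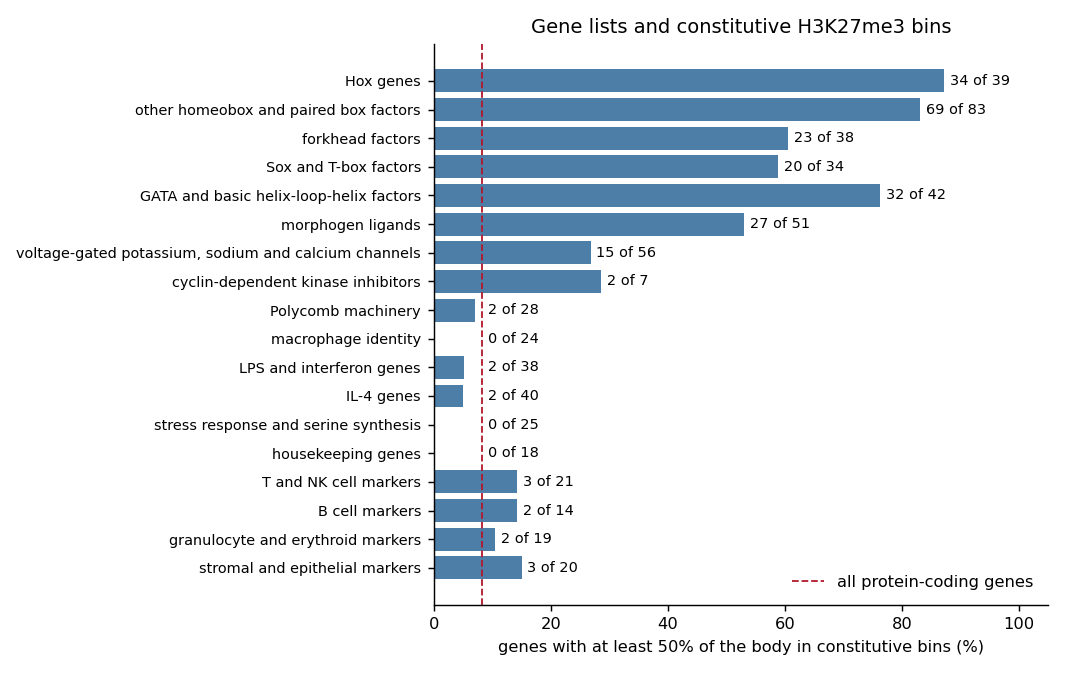
Share of genes on each of 18 lists with at least 50% of the body in constitutive bins (x axis, %), with the count beside each bar and the 8.24% of all protein-coding genes as a dashed line. Hox genes reach 34 of 39, and the macrophage identity, stress response and housekeeping lists are at 0.

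Among the homeobox factors, Lhx2 (forebrain and eye), Vax2 (ventral eye) and Cdx1 (gut and posterior axis) were covered over 100% of the body. Lhx2 had a density of 103.6 tags per kb in WT M0 and 83.2 in KO M0, 32.5 to 37.4 in M1 and 32.0 to 58.8 in M2. All 14 Nkx genes with numbered symbols were covered, a family chosen after its values were seen. Hhex, a homeobox factor of blood and liver progenitors, was the only gene of that list with no constitutive bin, and its body was covered in 0 libraries.

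Forkhead genes divided sharply. Foxa1 and Foxo6 were covered over the whole body, Foxa1 at 37.2 to 45.0 tags per kb in M1 and 37.3 to 77.2 in M2. By contrast 11 of the 38 forkhead genes held no constitutive bin, among them Foxk1 and Foxk2, factors expressed in many tissues, and Foxj2 and Foxj3. Within the GATA and helix-loop-helix list, Gata4 (heart and endoderm), Atoh8 and Gata2 were covered over 100% of the body. Tal1 and Lyl1, factors of blood progenitors, and Myog, a muscle differentiation factor, had no constitutive bin and were covered in 0 libraries.

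Of the T-box factors, Tbx1, Tbx4 and Tbr1, which pattern the pharynx, hindlimb and cortex, were wholly covered. Tbr1 stood at 164.0 tags per kb in WT M0 and 140.6 in KO M0. It had 37.2, 38.5, 39.7 and 38.0 tags per kb in M1, and 34.7, 41.6, 72.6 and 94.8 in M2, where both KO libraries exceeded both WT libraries. Among ligands, Shh, the hedgehog morphogen, Wnt10a and Fgf8 were wholly covered. Wnt10a had 38.0 to 48.2 tags per kb in M1 and 40.7 to 85.4 in M2, so the states overlapped.

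The 4 Hox clusters were covered over most of their length. Hoxc was covered over 111 of 116 kb (95.7%) and Hoxd over 88 of 98 kb (89.8%). Hoxb had 132 of 175 kb (75.4%) and Hoxa 71 of 106 kb (67.0%). Hoxa carried the highest density, with 130.5 tags per kb in WT M0 and 129.4 in KO M0, 52.2, 42.3, 44.0 and 48.3 in M1, and 42.9, 60.1, 66.0 and 81.7 in M2. Hoxb was the lowest of the clusters in M0, at 87.3 and 82.3 tags per kb. WT M2 replicate 1 fell within the M1 range at Hoxa, Hoxc and Hoxd and just below it at Hoxb, and both KO M2 libraries lay above all M1 libraries in each cluster. The medians over all constitutive bins had the same KO M2 order, 30.6 and 33.9 against 21.3 to 23.4 in M1, so it is not particular to Hox. With each library centred, limma called 0 of 241 constitutive bins at Hox genes between M2 and M1 at an adjusted p under 0.05.

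The longest uncovered parts of the clusters lay at named genes. In Hoxb there was a 25 kb gap (chromosome 11, 96314001 to 96339000), in which 11 bins were called in 0 libraries. It holds the whole body of Hoxb4, a Hox gene known in blood progenitors, and part of Hoxb3. In Hoxa a 13 kb gap (chromosome 6, 52192001 to 52205000) held Hoxa5, whose body was covered in 9 of the 10 libraries. Hoxa3 also fell under 50%, while the 9 Hoxc and 9 Hoxd genes all passed.

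**Figure D2:**
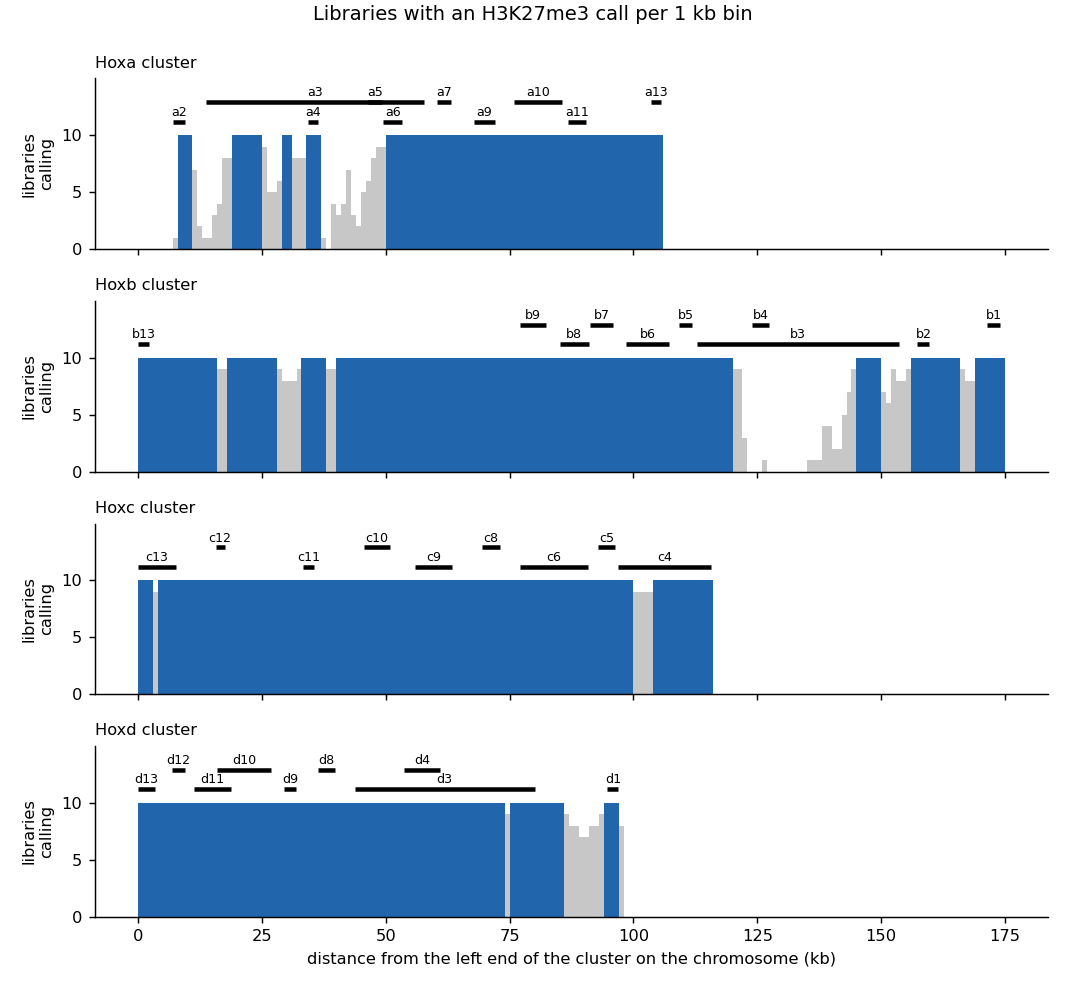
Number of libraries (0 to 10) that call each 1 kb bin across the 4 Hox clusters, against distance from the left end of the cluster (kb; the first 5 kb of Hoxa are not drawn). Blue bars are constitutive bins, grey bars are bins called in 1 to 9 libraries, and black lines above are gene bodies. The white space at Hoxb4 is the part of the 25 kb gap called in 0 libraries (11 bins).

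The microRNAs of the clusters followed the same map. Of 919 annotated hairpins on these chromosomes, 86 (9.36%) lay in constitutive bins. All 3 hairpins of the miR-196 seed shown above, Mir196a-1, Mir196a-2 and Mir196b, lay in constitutive Hox stretches of 80, 96 and 88 kb. Mir10b, at Hoxd, was called in 10 libraries at 36.7 to 120.6 tags per kb. Mir10a, whose product differs from it only by U12A, lies in the Hoxb gap and was called in 0.

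Other microRNA families lay in constitutive bins too. The 3 hairpins of miR-9, a microRNA of neural progenitors, lay in stretches of 68, 4 and 74 kb. Mir132 and Mir212, which sit together beside Hic1, lay in a 10 kb stretch at 50.1 to 331.6 tags per kb. Some microRNAs known from macrophages, Mir155, Mir146, Mir146b, Mir21a, Mir142, Mir147 and Mir22, were each called in 0 libraries, as were 710 of the 919 hairpins. They are a selection, and most hairpins were uncalled, so this is not read as a trait of macrophage microRNAs. Mir125b-1 lay in a 4 kb constitutive stretch.

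Of the 7 cyclin-dependent kinase inhibitors 2 were covered, and of 28 Polycomb genes 2, the latter near the 8.24% of all genes. Cdkn2a, which encodes the tumour suppressors p16 and p19 and is a classic Polycomb target, was covered over 85.1% of its body, and Cdkn1c, an imprinted inhibitor, over 100%. Cdkn2a had 66.9 and 64.8 tags per kb in M0, 36.4, 37.3, 40.1 and 37.2 in M1, and 33.8, 40.3, 41.8 and 45.3 in M2. The covered Polycomb genes were Epop, a cofactor of Polycomb repressive complex 2, and Cbx8, a reader of the mark. Cbx8 reached 184.5 and 169.9 tags per kb in M0, 38.7 to 52.3 in M1 and 38.9 to 115.7 in M2.

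Macrophage and housekeeping genes were free of the constitutive mark. None of the 24 macrophage identity genes, the 25 genes of the stress response and serine synthesis, or the 18 housekeeping genes held a single constitutive bin. Among LPS and interferon genes 2 of 38 were covered, or 5.26% against 8.24% of all protein-coding genes, which is not read as a difference. These were Il12a, the p35 chain of interleukin 12, at 55.1% of its body, and Ciita, the master regulator of MHC class II genes, at 52.9%. Ciita had 22.3, 21.7, 24.8 and 27.5 tags per kb in M1 and 20.2, 30.6, 31.5 and 35.3 in M2, so the states overlapped.

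Of 40 IL-4 genes 2 were covered, or 5% against 8.24% of all protein-coding genes, which is not read as a difference. They were Ccl24, an eosinophil chemokine, over 100% of the body, and Socs2, a feedback inhibitor of cytokine signalling, over 57.8%. Ccl24 had 45.2 and 47.1 tags per kb in M0, 34.5, 32.0, 45.7 and 34.7 in M1, and 39.7, 51.7, 43.9 and 49.8 in M2. The M1 library KO M1 replicate 1 reached into the M2 range. A further 12 of the 40 IL-4 genes had some constitutive bins but under 50% of the body, with Egr2, an IL-4-induced factor, at 45.8%.

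Among markers of other cell types, most genes on each list were not covered. The lists are short, so the counts below are not read as a difference from the 8.24% of all protein-coding genes. The T and NK list had 3 of 21 genes covered (Cd3e, Gata3 and Tbx21), the B cell list 2 of 14 (among them Blk), the granulocyte and erythroid list 2 of 19 (Epor and Gfi1), and the stromal and epithelial list 3 of 20 (Des, Col1a1 and Cldn4). Cd3e, a chain of the T cell receptor complex, had 22.9 to 26.9 tags per kb in M1 and 21.4 to 32.1 in M2. Its M0 values of 26.9 and 26.2 lay inside the stimulated range, unlike the Hox clusters.

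The counts were taken again without the M0 libraries and without both WT replicate 1 libraries. The 8 stimulated libraries alone gave 117522 bins, 1945 covered genes and 35 of 39 Hox genes, with Cdkn2b added to the inhibitors, which then numbered 3 of 7, and Cd3g and Ncr1 to the T and NK list, then 5 of 21. Without WT M1 replicate 1 and WT M2 replicate 1 there were 102077 bins, 1959 genes and 36 Hox genes. In both cases the macrophage identity, stress response and housekeeping lists stayed at 0. These 2 settings were chosen after the data had been seen.

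Clustered gene families outside the lists varied in cover, and those given here were picked out after their values were seen. Of 39 numbered Prss genes, which encode serine proteases, 6 were covered and 23 held no constitutive bin, and of 26 Klk genes, the kallikreins, 9 were covered and 11 held none. All 8 Gimap genes with numbered symbols, GTPases of lymphocytes on chromosome 6, were covered over 60.02% to 100% of the body. Of 13 numbered Ifna genes, which encode type I interferons, 10 were covered. In WT M0 they ran from 16.6 tags per kb at Ifna9 to 32.0 at Ifna14. Ifnb1, the interferon gene at the edge of the same cluster, was covered in 0 libraries.

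In the Oas family, the interferon-induced oligoadenylate synthetases, Oas1d, Oas1e, Oas1f and Oas1h were covered, at 62.7% to 100% of the body. Oas1a, Oas1c, Oas1g, Oas2, Oas3, Oasl1 and Oasl2 had no constitutive bin and were covered in 0 libraries. The Oas1, Ifna and Gimap copies resemble each other in sequence, and how reads with several matches were placed is not given in the sources used here.

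Constitutive bins lay in runs. They formed 16591 stretches of adjacent bins with a median of 3 kb, of which 5020 (30.3%) were single bins. The 775 stretches of 20 kb or more held 31.4% of all constitutive bins. Called bins of single libraries ran in stretches with medians of 2 to 3 kb and had 34.7% to 50.2% of bins in stretches of 20 kb or more. Bins called in 1 to 9 libraries had a median of 2 kb with 32.5% single bins and 16.2% of bins in such long stretches, and those called in exactly 9 had a median of 1 kb and a maximum of 10 kb. On both sides, 96.8% of constitutive stretches were bordered by bins called in some libraries, and of the 4252 runs of called bins of 20 kb or more, 86.1% held a constitutive bin.

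The longest stretch, 290 kb on chromosome 17 (25285001 to 25575000), covers mast cell tryptases and serine proteases (Tpsb2, Tpsg1, Prss28, Prss29, Prss34), the T-type calcium channel Cacna1h, the somatostatin receptor Sstr5 and Sox8. It had 60.8 and 61.7 tags per kb in M0, 32.9, 28.0, 29.1 and 33.4 in M1, and 26.2, 39.2, 47.5 and 51.7 in M2. The second, 176 kb on the same chromosome, contains no protein-coding gene and ends 3.99 kb from Vegfa, the angiogenic growth factor. Then came 172 kb at Cux2 (a neuronal homeobox gene), 157 kb at Itga3, Dlx3 and Dlx4 (distal-less factors of limb and face), 140 kb at Cyp11a1 (the enzyme that starts steroid synthesis) and Stra6 (the retinol receptor), and 136 kb at Lhx1, a factor of the kidney. The remaining stretches of the longest 12, 115 to 129 kb, hold among others the mucin Muc4, the synaptic scaffold Shank2, the vesicle protein Syt7 and Cfap77.

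Chromosome 11 had the highest share of its span in constitutive bins, 7.71%, and chromosome 3 the lowest, 1.44%. They hold 13.2 and 6.15 protein-coding genes per Mb. Constitutive bins lay in a protein-coding gene body in 52.7% of cases against 40.7% of all bins, and 34.0% lay more than 5 kb from any such gene against 53.9%. A RefSeq start site lay in 3.73% of constitutive bins and in 0.735% of all bins.

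Promoters were examined for their base content with the RefSeq sequences, which matched 16457 of 20665 genes (79.6%) and gave 20085 promoters. The start of 3573 promoters (17.8%) lay in a constitutive bin. The letters CG, which read the same on both strands, occurred at least once in 99.3% of these promoters and in 95.6% of all. The median ratio of observed to expected CpG was 0.620 at constitutive promoters, 0.365 at promoters called in 1 to 9 libraries and 0.625 at uncalled promoters. CpG-rich promoters, with a ratio of at least 0.6 and a GC content of at least 50%, were 50.8%, 28.8% and 48.9% of the classes, while median GC content was 61.7%, 55.3% and 55.7%.

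**Figure D3:**
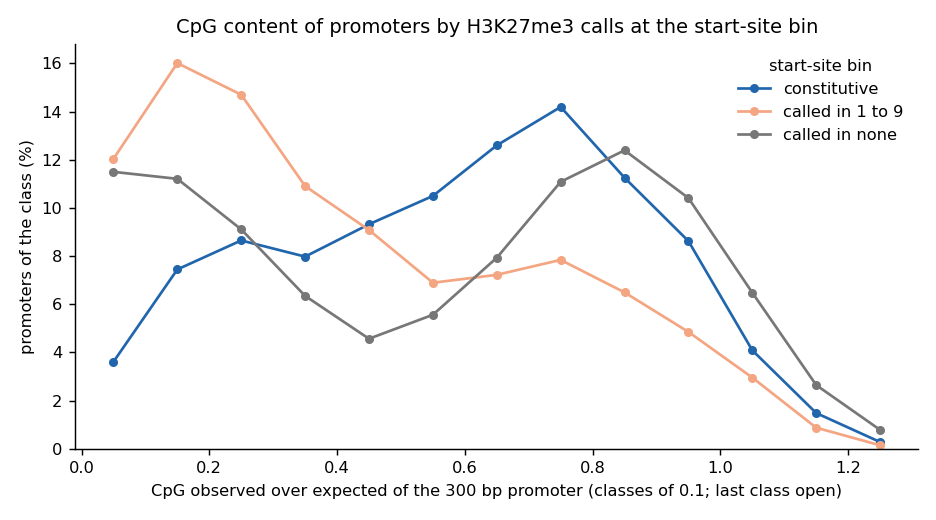
Share of promoters (y axis, %) by ratio of observed to expected CpG (x axis) for start-site bins called in all 10, in 1 to 9, or in 0 libraries. Promoters called in 1 to 9 libraries sit lowest, with a median of 0.365, and the constitutive median is 0.620.

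CpG-rich promoter bins carried more of the mark than the others within the constitutive set. Their median was 74.4 tags per kb in WT M0 and 67.1 in KO M0, against 48.7 and 46.2 at the remaining promoter bins. In M1 the CpG-rich medians were 26.0, 22.8, 24.6 and 24.9 against 23.1, 20.7, 22.4 and 22.9. In M2 they were 23.9, 29.7, 35.04 and 43.8 against 20.6, 26.3, 30.6 and 35.4. The CpG-rich median was the higher in each of the 10 libraries, although the median stretch was 6 kb in both classes.

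Density was higher the longer the constitutive stretch, in each of the 10 libraries. Averaged over libraries, the median was 17.7 tags per kb at single bins, 21.5 at 2 to 5 kb, 26.9 at 6 to 19 kb, 33.4 at 20 to 49 kb and 38.9 at 50 kb or more. The spread between libraries grew along with it, from 14.5 to 20.3 at single bins to 26.2 to 56.4 at the longest. A bin takes the mean density of the region over it, so neighbours share a value and a peak inside a long region is averaged away.

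**Figure D4:**
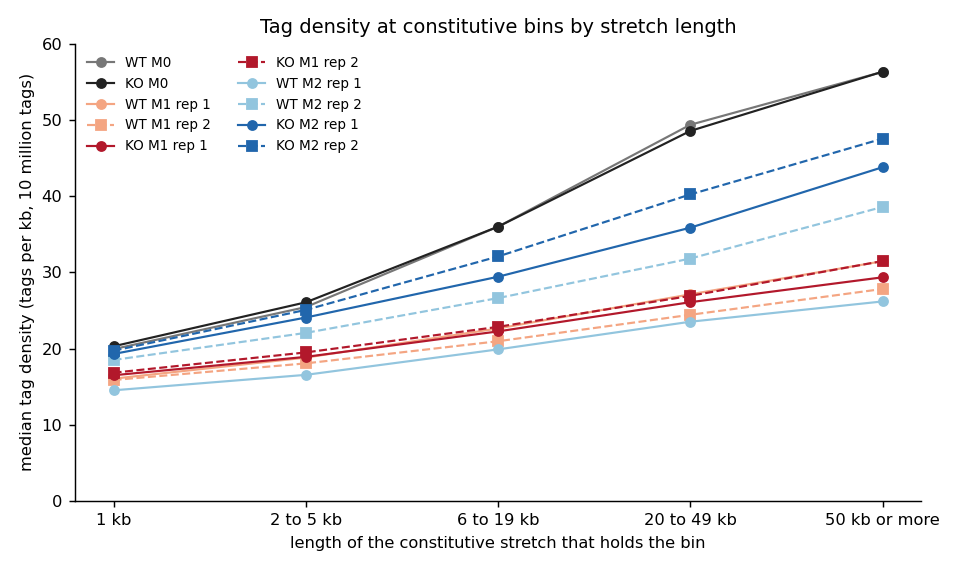
Median tag density of constitutive bins (y axis, tags per kb at 10 megatags) by length of their stretch (x axis), with 1 line per library. Each line rises from single bins, at 14.5 to 20.3, to stretches of 50 kb or more, at 26.2 to 56.4.

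Among 1530 genes of at least 2 kb, the mean density over the 10 libraries ran from 14.97 to 126.8 tags per kb, with a median of 36.4. Hic1, a transcriptional repressor silenced in many tumours, was highest. It had 331.6 and 286.1 tags per kb in M0, 66.7, 57.7, 63.7 and 69.7 in M1, and 50.1, 86.3, 106.3 and 149.8 in M2. Next were Ajm1 (a junction protein, mean 121.4), the MHC class Ib genes H2-Q6 and H2-Q7 (105.9), the corepressor Skor1 (103.0), Mzb1 and Prob1 (97.8, sharing bins) and the early growth response factor Egr3 (95.0). H2-Q6 and H2-Q7 are close copies, so their reads may not be separable.

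The lowest were the protease inhibitor Serpina3c (14.97), the kallikreins Klk1 (16.1) and Klk1b8 (16.5) and the hair follicle keratin Krt73 (16.9). Klk1 had 12.2 to 20.9 tags per kb over the libraries, near the level of single bins. The stretch with the highest density of all, 6 kb on chromosome 17 (39843001 to 39849000), lies over the ribosomal RNA pseudogene Rn18s-rs5 and reached 3747 tags per kb in WT M0 and 359.9 in KO M1 replicate 2. Ribosomal sequence is repeated in the genome, so this value is uncertain.

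Variation between libraries was read after each gene was divided by the library's own median at constitutive bins. The coefficient of variation had a median of 16.1% over the genes, and of 9.85% in the 8 stimulated libraries alone. The least variable were Ncmap (a myelin protein, 3.03%), Cnih3 (a glutamate receptor partner, 3.24%), Phyhip (3.35%) and the potassium channel Kcnj12 (3.52%). The most variable were the homeobox gene Nkx2-4 (102.7%), the zinc finger factor Insm2 (97.7%), the surface glycoprotein Tpbg (96.5%) and Egr3 (92.7%). All 4 were higher in M0. Egr3 had 325.4 and 287.0 tags per kb in M0 against 29.3 to 71.4 in the other 8 libraries, and after scaling M0 was 4.88 times the stimulated level.

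At the level of whole libraries, the median density at constitutive bins was 38.5 tags per kb in WT M0 and 38.3 in KO M0. The M1 libraries had 23.4 and 21.3 in WT and 22.7 and 23.4 in KO. The M2 libraries had 20.4 and 27.3 in WT and 30.6 and 33.9 in KO. M1 was tightly grouped, while M2 ran from below all M1 libraries to well above them.

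M2 averaged 28.1 ± 5.78 (SD, n = 4) against 22.7 ± 0.974 in M1 (SD, n = 4), a difference of 5.36 tags per kb with p = 0.143 by exact two-sided permutation over 70 arrangements. That permutation did not keep the genotypes apart, so the spread between WT M2 and KO M2 enters both the SD and the p. KO exceeded WT by 3.60 tags per kb within states, M0 included, with p = 0.139 by exact two-sided permutation over 72 arrangements. Over M1 and M2 only, the genotype difference was 4.55 with p = 0.111 by exact permutation. Without WT M2 replicate 1 the genotype difference was 1.86 (p = 0.139 by exact permutation). With all libraries neither difference passed 0.05, and the adjusted p was 0.163 for both over 8 comparisons of library measures. Without WT M2 replicate 1 the difference between M2 and M1 was 7.55 tags per kb with p = 0.0286 by exact permutation, the smallest that arrangement of 7 libraries allows. Without KO M2 replicate 2 it was 3.40 with p = 0.286 by exact permutation, and without each of the other libraries in turn p was 0.2 to 0.229.

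The share of tags inside called regions moved with these medians. It was 41.3% in WT M2 replicate 1, which had the lowest median, 45.0% to 48.5% in M1, 56.5% to 61.3% in the other M2 libraries, and 62.6% and 64.1% in M0. Across the 8 stimulated libraries the share and the median correlated at 0.969. With density taken per 10 megatags inside regions, M2 exceeded M1 by 2.35 with p = 0.143 by exact permutation. KO then exceeded WT by 1.69 with p = 0.278 by exact permutation. These 2 values are on another scale than the differences above. Beyond this rescaling, the part of the share in the density differences was not tested. The ratio of constitutive to other called bins was 1.48 ± 0.0538 (SD, n = 4) in M1 and 1.68 ± 0.189 (SD, n = 4) in M2, with p = 0.143 by exact permutation, and 1.89 and 1.98 in M0. Constitutive bins held 44.4% to 69.4% of the tags inside a library's regions.

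**Figure D5:**
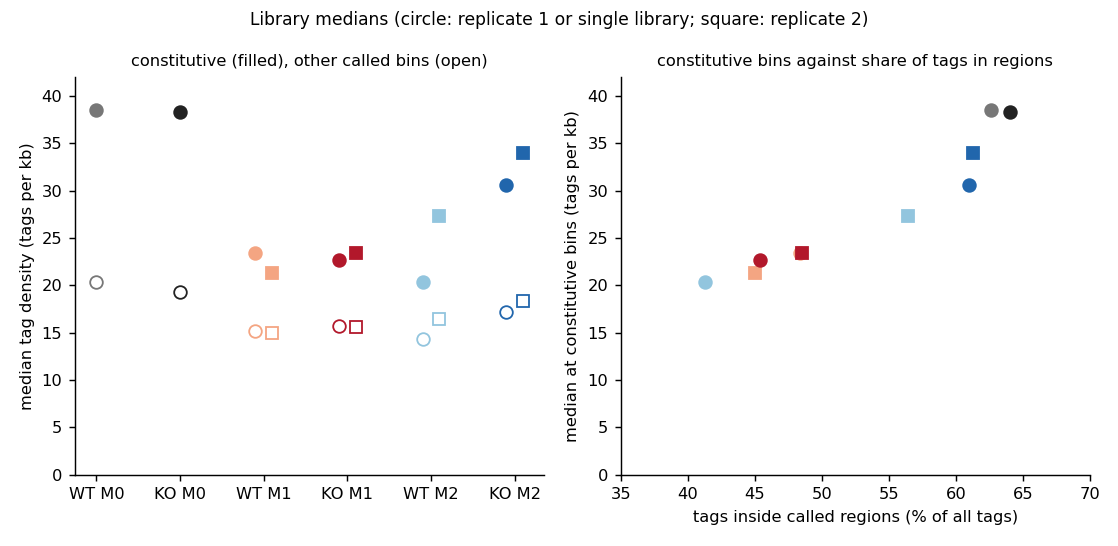
Left, median tag density (tags per kb) of each library at constitutive bins (filled) and at the other called bins (open), by group. Right, the constitutive median against the share of tags inside regions (%), with the same colours; the M1 libraries sit at 21.3 to 23.4 and the M2 libraries at 20.4 to 33.9.

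Single bins were then compared with limma on log2 density, centred on each library's median over the 117522 bins called in all 8 stimulated libraries. Between M2 and M1, 208 of 89232 constitutive bins were higher in M2 and 80 lower at an adjusted p under 0.05, in 45 and 40 stretches. Over all tested bins the shares called were 0.201% higher and 0.207% lower. Without centring, where the median tested bin shifts by 0.25 on the log2 scale, 17551 constitutive bins were higher and 60 lower (16.8% and 0.203% of all tested bins). These counts rest on single libraries: leaving out WT M1 replicate 1, WT M1 replicate 2, KO M1 replicate 1 or KO M1 replicate 2, each alone, limma called 0, with 20637, 12157, 13893 and 14819 bins at an unadjusted p under 0.05. Without WT M2 replicate 1 it called 59 higher and 24 lower, and without KO M2 replicate 1 it called 2726 and 1003. The direction of the split turned without WT M2 replicate 2 (1 higher and 20 lower), without KO M2 replicate 2 (4 and 19) and when the region list was cut to its better-scoring 50% (15 and 27). With the 4 pairs of genotype and replicate number as blocks, and a state term shared by both genotypes, limma called 0. In that fit 15211 bins had an unadjusted p under 0.05. The stretches named next rest on the fit without these blocks.

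The stretches with the lowest adjusted p among those higher in M2 lay at Tcf20, Jph1, Klhl29, Macroh2a2, Rims2 and Mmp15. At Rims2, WT M2 had 25.5 and 41.2 tags per kb, the first inside the M1 range of 22.2 to 31.1, and KO M2 had 89.9 and 120.5. At Mmp15, a membrane metalloproteinase whose stretch also reaches Usb1, density was 27.3, 25.1, 27.2 and 24.6 tags per kb in M1 and 36.1, 44.9, 53.4 and 54.0 in M2, with no overlap. Its centred log2 difference was 0.60 ± 0.08 (SE) with a limma adjusted p of 0.0448, and M0 stood at 119.9 and 108.2. At Macroh2a2, a histone variant gene, M1 had 25.4, 25.05, 22.0 and 21.3 and M2 32.4, 44.5, 46.6 and 62.2 (log2 difference 0.71 ± 0.09 SE, limma adjusted p = 0.0353). The authors' regions over Mmp15 were 12.3 to 15.8 kb long in M1 and 7.86 to 15.3 kb in M2. Over Macroh2a2 they were 10.6 to 21.6 kb in M1 and 7.27 to 10.9 kb in M2. Over Rims2 they were 12.6 to 41.5 kb in M1, 26.7 and 12.4 kb in WT M2, and 5.50 and 5.48 kb in KO M2. Of the 208 bins higher in M2, 63.0% lay under regions shorter in M2 by geometric mean, against 59.0% of all constitutive bins.

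Lower in M2 were stretches at Mog (a myelin protein), at Itgb3 (an integrin of platelets and osteoclasts) and 4 stretches between Lnpk and Evx2 beside the Hoxd cluster (chromosome 2, 74607001 to 74630000). At 74613001 to 74615000 the density was 41.1, 36.7, 39.2 and 40.1 tags per kb in M1, 37.1 and 45.0 in WT M2, and 15.7 and 16.3 in KO M2. The authors' regions there were 179.0 to 196.1 kb long in M1, 170.2 and 182.8 kb in WT M2, and 39.9 and 3.97 kb in KO M2. In 7 of the 8 stimulated libraries, all but KO M2 replicate 2, the 4 stretches lie under 1 region and share 1 value. In M1 and WT M2 that value is also the density of the Hoxd cluster, so it is an average over cluster and flank. In KO M2 the Hoxd cluster had 62.9 and 78.1 tags per kb, apart from the values of the stretches beside it. All 80 bins called lower in M2 lay under regions that were shorter in M2 than in M1 by geometric mean, against 59.0% of all constitutive bins. The part of region length in these calls was not tested.

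Between genotypes, limma called 8 constitutive bins higher and 14 lower in KO over M1 and M2, against 0.00851% and 0.0391% of all tested bins. Without centring there were 158 and 12 (0.151% and 0.0332% of all tested bins). Higher bins lay at Ap1b1, an adaptor protein subunit, and between 29.7 and 34.7 kb from Lbx1, a homeobox gene of muscle precursors. At Ap1b1, WT had 15.5, 14.7, 13.8 and 19.7 tags per kb and KO 27.4, 27.9, 37.9 and 46.5, with no overlap (log2 difference 0.89 ± 0.08 SE, limma adjusted p = 0.0110). The authors' regions over it were 2.28 to 5.99 kb long in those WT libraries and 29.8 to 36.7 kb in KO.

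The lower bins with the smallest adjusted p in KO were at the 4 Hoxd-side stretches, 3 stretches 65.1 to 77.1 kb from Hoxc13 and a stretch 6.89 kb from Tbr1. The Hoxd-side and Tbr1 calls come from M2. At the Hoxd-side stretches KO minus WT was -0.012 in M1 and -1.72 to -1.81 in M2 on the log2 scale. At the Tbr1 stretch it was -0.0072 in M1 and -1.54 in M2. In M1 and WT M2 this stretch had the same values as the Tbr1 body, under regions of 34.3 to 37.4 kb. In KO M2 it had 18.4 and 16.1 tags per kb under regions of 12.7 and 13.6 kb, while the Tbr1 body was higher than in WT M2. The lower flank and the higher body in KO M2 are therefore not separate results. All 14 lower bins lay under regions shorter in KO, and all 8 higher bins under regions longer in KO, against 34.0% and 66.0% of all constitutive bins. The count of 22 became 6 without WT M1 replicate 1, 0 without WT M1 replicate 2, 3 without KO M1 replicate 1, 1 without KO M1 replicate 2, 0 without WT M2 replicate 1 and 73 without KO M2 replicate 1. Where it was 0, limma gave 5004 and 5275 bins at an unadjusted p under 0.05.

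Within single states, limma called 0 bins between genotypes in M1 (0% of all tested bins, with 1351 constitutive bins at an unadjusted p under 0.05). In M2 it called 110 constitutive bins higher and 61 lower in KO, against 0.0996% and 0.197% of all tested bins. Without centring the M2 counts were 29016 and 60 (27.2% and 0.207% of all tested bins), with a shift of 0.41 on the log2 scale. The genotype difference itself differed between M2 and M1 at 8 constitutive bins upward and 12 downward by limma's interaction term, against 0.00851% and 0.0417% of all tested bins, and without centring at 109 and 5 (0.105% and 0.0153%). Kcnc1, a potassium channel of fast-spiking neurons, had 13.1 and 16.8 tags per kb in WT M2 against 32.2 and 38.6 in KO M2 (log2 difference 0.84 ± 0.11 SE, limma adjusted p = 0.0208). It was the only gene of the 18 lists with a called bin between M2 and M1, where it was higher in M2, between genotypes, or between genotypes within M2. Divided by the library median, its WT M2 values of 0.640 and 0.616 lay inside the M1 range of 0.561 to 0.677. Only the KO M2 values, 1.05 and 1.14, lay above that range. The authors' regions over Kcnc1 were 3.91 to 22.0 kb long in M1, 6.98 and 18.2 kb in WT M2, and 44.5 and 45.1 kb in KO M2. The part of region length in this call was not tested.

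The authors' deposited tables list short differential regions between the genotypes in M1 and in M2. In the authors' deposited table of regions with more H3K27me3 in KO M2, 321 of 1049 regions (30.6%) were centred in a constitutive bin, which is 0.360% of constitutive bins. Constitutive bins are 23.9% of all bins called in any library, and 36.5% and 41.8% of those called in the 2 KO M2 libraries, so this share is not read as a preference. In the authors' deposited table of the opposite direction it was 3 of 185 (1.62%), and for M1 it was 8 of 93 and 2 of 49 in the authors' deposited tables, where the lowest false discovery rate on constitutive bins was 0.99985. The median log2 fold of the 321 was 1.33 against 1.58 for the rest of the authors' deposited table, and their lowest false discovery rate was 0.105.

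By p-value in the authors' deposited table the first 3 of these with a gene near were at Arc (a neuronal activity gene), at Mgat4e and Kdm5b (the latter a histone demethylase) and at Gem (a small GTPase), with log2 folds of 1.91, 1.87 and 1.84. At the 12 kb Arc stretch the region lists gave 15.96 and 21.3 tags per kb in WT M2 and 25.3 and 29.2 in KO M2. The library medians over all constitutive bins had the same order, 20.4 and 27.3 in WT M2 and 30.6 and 33.9 in KO M2. The Arc values are therefore not read as agreement with the authors' shorter region. Shox2, a homeobox gene of limb and heart, stood among the regions with less H3K27me3 in KO M2, at -1.97 on the log2 scale in the authors' deposited table. The region lists gave the opposite order over its 14 kb stretch, with 32.1 and 42.6 tags per kb in WT M2 and 58.1 and 75.9 in KO M2.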

How the data were processed

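H3K27me3 ChIP-seq of 10 libraries was analysed from region lists made with HOMER, in which 1000 bp windows were joined across 2500 bp at a false discovery rate of 0.001 without an input, per the file headers. The submitters' processing notes name Bowtie2 2.4.2, SAMtools 1.10, deepTools 3.5.1, HOMER 4.8, DiffBind 2.0.2 and mm10. Tags per region are a signal that the authors normalised to 10 megatags. Regions were ranked by the score that the authors deposited for each, and the deposited ratio (clonal fold change) was not used. The 4 deposited tables give log2 concentrations and folds, p-value and false discovery rate per region, and their model is not given in the sources used here.

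From these, 1 kb bins, gene cover and tags per kb were computed in Python 3.11.15 (scipy 1.17.1, numpy 2.4.6, pandas 2.3.3). Library medians were compared by exact permutation and single bins with limma 3.58.1 (R 4.3.3, Benjamini-Hochberg adjustment), which was tested on simulated data. Gene positions came from RefSeq GRCm38.p6, and 591 of 599 list genes matched. The members, lists and tests were chosen with earlier results of these data known. Genes were named by share of body covered (up to 4 a list), by length of stretch (12), by density and variation, and by adjusted p (8 stretches a direction), and the authors' regions by p (up to 6 a table). Same-numbered libraries did not deviate together (correlations 0.0979 in WT and 0.00882 in KO), and no label ties them to 1 animal, so libraries were not paired, although both WT replicate 1 libraries of M1 and M2 share broad X chromosome calls. Depth was 12.6 to 20.9 megatags, and alternatives changed 1 choice at a time.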

Additional observations from a re-analysis of the deposited data

Results flagged for a closer look

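Of 40 groups of 4 libraries checked for a lone value, 2 were picked out, and chance picks out about 1 in 20. At the Hoxc cluster WT M1 replicate 2 had 31.3 tags per kb against 39.4, 40.5 and 40.7 in the other M1 libraries. It had the same 31.3 at the stretches named above near Hoxc13, under a region of 425.1 kb. There the other M1 libraries had 16.8 to 22.2 tags per kb, under regions of 29.7 to 134.9 kb. The part of region length in the Hoxc value was not tested. At the 176 kb stretch near Vegfa WT M1 replicate 2 had 33.0 tags per kb against 37.2, 37.2 and 37.7.

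The difference between KO and WT itself differed between M2 and M1 at 20 constitutive bins by limma's interaction term (8 upward and 12 downward, against 0.00851% and 0.0417% of all tested bins). The smallest limma adjusted p of this term, 0.0133 to 0.0135, was at the 4 Hoxd-side stretches, where KO was lower in M2 only. Insm2, a zinc finger factor of endocrine cells, is among the 20 bins and was named after its values were seen. It had 39.0 and 36.1 tags per kb in WT M1 and 22.0 and 22.2 in KO M1, but 20.1 and 26.9 in WT M2 and 39.4 and 46.6 in KO M2 (log2 interaction 1.29, limma adjusted p = 0.0376). The authors' regions over it were 11.03 and 9.42 kb long in WT M1 and 39.1 and 36.5 kb in KO M1, then 36.2 and 36.6 kb in WT M2 and 17.6 kb in both KO M2 libraries. The part of region length was not tested.

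On the X chromosome, which the comparisons leave out, 337 bins were called in all 10 libraries, 0.583% of the 57780 called in any. Most of the latter come from WT M2 replicate 1 (52942) and WT M1 replicate 1 (31310), while the other 8 libraries called 686 to 1000 each. The 337 bins lie at Sox3, a developmental transcription factor, among other genes, and it was named after its values were seen.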

How the results depend on the processing

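The median stretch stayed at 3 kb under every alternative. Keeping the upper 50% of regions by score left 2771 bins and 56 genes, and asking for every bin a gene touches left 766 genes. Leaving out 1 library gave 89311 to 99008 bins and 1703 to 1901 genes. The median density difference of M2 over M1 was 3.40 to 7.55 tags per kb with 1 library left out, and KO over WT 1.86 to 4.399. With the replicate block M2 exceeded M1 by 5.36 (p = 0.25, exact sign changes over 4 pairs).

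Counts of limma calls were the least stable. Between M2 and M1, 288 bins became 17611 without centring, 42 in the upper 50% of regions and 151 over whole stretches. They became 0 with blocks of genotype and replicate number (15211 at an unadjusted p under 0.05) and 0 to 3729 with 1 library left out. Between genotypes, 22 became 170 without centring and 0 in the upper 50% of regions (549 at an unadjusted p under 0.05). They became 20 with replicate number added as a term to the group means, a different model, and 0 to 73 with 1 library left out. The cause was not tested. The authors' 3 regions with less H3K27me3 in KO M2 were 3 to 5. Densities are region averages, so changes inside a region cannot be seen.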

Other observations

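Of the genes near the authors' KO M2 regions on constitutive bins, 307 of 20665 by the authors' deposited table, 7 were on the lists of 591 genes, and they were named after their values were seen. They were Irx6 (a homeobox factor), Bmp4 and Sfrp1 (a ligand and a Wnt inhibitor), Cacna1a (a calcium channel), Hba-a1 (an alpha globin), Cldn4 and Kdr. Log2 density over the constitutive bins correlated across bins at 0.838 to 0.912 between libraries of 1 group, at 0.929 between the M0 libraries and at 0.643 to 0.859 between M0 and stimulated libraries. Bins share regions and are not independent.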
